A study of Mus musculus with 7 samples.

Results

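Naive and resting T cells share a set of genes for quiescence and for travel through lymph nodes, and 9 of these were followed here in regulatory T cells (Treg cells) with and without Hpgd: Klf2, S1pr1, S1pr4, Tcf7, Lef1, Satb1, Bach2, Il7r and Igfbp4. They were chosen by gene symbol from the 15815 genes of the expression table, and all 9 were found and passed the filter that left 11787 genes for testing. Bulk RNA-seq was done on YFP+ Treg cells sorted from the mesenteric lymph nodes (labelled mLN) of Rag-/- mice, hosts that make no T or B cells but keep their myeloid, NK and stromal cells. The hosts had received naive T cells and Treg cells, both WT, together with a further Treg population 8 weeks before they were killed. That population was YFP+ and WT in 4 libraries (WT 1 to 4), and YFP+ and Hpgd-deficient in 3 (KO 1 to 3). The labels give the strain as C57BL/6JRcc and 1 line for all 7 libraries, Hpgd fl with Foxp3-YFP-Cre, in which the Cre is expressed from the Foxp3 locus and Hpgd is deleted in Treg cells. They do not say which alleles the WT donors carried, give no age, and do not say whether each library is a separate host, so p-values here measure the spread between these samples, which may be technical.

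Klf2 encodes a zinc finger transcription factor that keeps T cells quiescent and activates S1pr1, the receptor by which lymphocytes follow sphingosine-1-phosphate out of lymph nodes. Tcf7 (TCF-1) and Lef1 encode related HMG-box factors that keep T cells in a naive or memory state, Satb1 encodes a chromatin organizer, and Bach2 encodes a repressor that restrains effector differentiation of Treg and other T cells. Il7r encodes the interleukin-7 receptor alpha chain, a survival receptor of resting T cells. Igfbp4, which encodes a secreted binding protein for insulin-like growth factors, is a common transcript of naive T cells. On GRCm38 the genes lie at chr8:72319033-72321656 (Klf2, plus strand), chr3:115710433-115715072 (S1pr1, minus), chr10:81497747-81500132 (S1pr4, minus), chr11:52252371-52283014 (Tcf7, minus) and chr3:131110471-131224356 (Lef1, plus). The others lie at chr17:51736187-51833290 (Satb1, minus), chr4:32238804-32586108 (Bach2, plus), chr15:9505788-9530176 (Il7r, minus) and chr11:99041244-99054392 (Igfbp4, plus), and all 9 are protein-coding.

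Upstream windows of these genes differed in base composition, both between genes and between windows of 1 gene. RefSeq starts on GRCm38.p6 were found for 8 of the 9 genes (not S1pr1), with 16 windows of the 250 bases before a start. The windows below are written 5′ to 3′ on the gene's strand, for genes with and without a CACCC-type KLF box. Capitals mark that box, CCACCC or its reverse complement GGGTGG. They lie at chr10:81500138-81500387 (S1pr4, minus strand), chr3:131110047-131110296 (Lef1, plus), chr4:32417185-32417434 (Bach2, plus, inside the longer GENCODE gene) and chr11:99040994-99041243 (Igfbp4, plus), and none overlaps a GENCODE exon.
S1pr4: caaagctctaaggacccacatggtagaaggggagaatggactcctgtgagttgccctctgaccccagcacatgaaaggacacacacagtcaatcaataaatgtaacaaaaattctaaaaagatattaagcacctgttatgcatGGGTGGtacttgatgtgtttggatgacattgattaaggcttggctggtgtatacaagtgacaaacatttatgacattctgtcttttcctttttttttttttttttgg
Lef1: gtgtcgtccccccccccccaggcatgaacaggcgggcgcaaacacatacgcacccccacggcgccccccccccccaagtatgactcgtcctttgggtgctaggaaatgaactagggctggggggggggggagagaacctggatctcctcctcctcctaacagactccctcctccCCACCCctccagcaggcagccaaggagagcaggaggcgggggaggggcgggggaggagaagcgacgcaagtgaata
Bach2: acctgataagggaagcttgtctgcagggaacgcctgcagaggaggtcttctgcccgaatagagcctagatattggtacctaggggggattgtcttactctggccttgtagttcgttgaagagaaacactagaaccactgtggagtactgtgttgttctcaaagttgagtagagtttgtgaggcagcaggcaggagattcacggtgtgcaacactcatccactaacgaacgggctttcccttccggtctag
Igfbp4: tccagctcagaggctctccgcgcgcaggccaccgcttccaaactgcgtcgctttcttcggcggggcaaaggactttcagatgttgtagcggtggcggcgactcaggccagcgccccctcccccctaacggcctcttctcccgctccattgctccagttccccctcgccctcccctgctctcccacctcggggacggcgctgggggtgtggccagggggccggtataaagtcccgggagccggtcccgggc
The share of G and C was 38.8% in the S1pr4 window, 50.4% in Bach2, 66.4% in Lef1 and 69.2% in Igfbp4, against a median of 52.4% over 32851 windows. It also varied within a gene, from 50.8% to 80.8% over the Satb1 windows and from 44.8% to 66.4% over those of Lef1. CCACCC on either strand was in 9 of the 16 member windows, from Klf2, S1pr4, Tcf7, Lef1 and Satb1, and in 28.1% of all windows. The Satb1 windows with the box lie wholly within GENCODE exons (250 of 250 bases). Those of Klf2 and Tcf7 overlap exons by 29 and 67 bases. Some windows of 1 gene overlap, as do 2 of Lef1 and 2 of Satb1. The 2 overlapping Lef1 windows hold the same box, at positions -76 and -102, so 1 box is counted in both. The box lay 107 bases before the start in S1pr4 (position -107) and at position -76 in Lef1. A FOXO motif, GTAAACA, was in 0 of 16 member windows and 3.17% of all. A TCF and LEF motif, CTTTGAA or CTTTGAT, was in 0 of 16 and 7.48% of all. None of the 3 motifs overlaps another in its letters, both strands were searched, and a match describes letters, not a bound site.

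Values are normalized counts, the deposited value minus 1. Reads recovered from these values and summed over the deposited genes ran from 4135733 (KO 3) to 10622507 (WT 4). Hpgd, the deleted gene, encodes the enzyme that oxidizes prostaglandin E2 and checks the labels. Its levels were 18.7, 9.96, 10.2 and 13.4 across the 4 WT libraries, while KO 1, KO 2 and KO 3 gave 0.759, 2.42 and 5.52, so the groups did not overlap. It lay below the filter on low values. WT 2 and KO 3 stood apart, with the lowest limma array weights (0.275 and 0.470), and each member's difference is also given without both. All 8 Treg and T cell markers were present, with summed levels of 39139 to 45102 in WT and 42807 to 44081 in KO, led by Ikzf2 and Cd3g. Foxp3, the defining Treg gene, adds little to these sums, at means of 107 in WT and 124 in KO. It was lowest in WT 2 (56.1) and highest in WT 3 (161). Markers of CD8 T and NK cells (led by Cd8b1 and Klrb1c) summed to 111 to 193 and 80.9 to 159, those of B and plasma cells (Cd79b and Jchain) to 389 to 769.5 and 373 to 541, and those of myeloid and dendritic cells (Lyz2 and Csf1r) to 478 to 1949 and 989 to 2027 (WT and KO). B cell markers rested on Cd79b, with the defining gene Cd79a at means of 4.90 and 8.93. Of the 7 summed lists only the erythroid one (led by alpha and beta globin) did not overlap between genotypes, at 642 to 2809 in WT and 77.4 to 239 in KO, and their part in the results below was not tested. Endothelial markers, which bear on Klf2 and S1pr1 since endothelium expresses both, summed to 3.51 to 14.5 in WT and 9.19 to 40.4 in KO with 5 of 10 in the table (led by Kdr and Tie1). They were highest in KO 2 (40.4), where Klf2 and S1pr1 were lowest, and their part in the values of these 2 genes was not tested. Stromal markers, which bear on Igfbp4, summed to 41.8 to 52.0 and 49.6 to 91.1 with 7 of 10 in the table (led by Col1a1 and Col1a2). In bulk RNA, fewer cells of a type and less RNA per cell cannot be told apart.

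Il7r was the most abundant of the 9 per length of transcript and Bach2 the least. Per kilobase of the longest GENCODE transcript, means over the 7 libraries were 1391 ± 398 (SD) normalized counts for Il7r, 717 ± 136 for Tcf7, 455 ± 54.1 for S1pr1, 413 ± 89.5 for Klf2 and 366 ± 118 for S1pr4. The rest followed at 208 ± 60.9 for Satb1, 188 ± 35.4 for Lef1, 41.8 ± 18.7 for Igfbp4 and 17.1 ± 6.65 for Bach2. Il7r was above Tcf7 in 6 of 7 libraries and Tcf7 above S1pr1 in 7 of 7. S1pr1 and Klf2 changed order in some libraries (S1pr1 higher in 5 of 7), as did Klf2 and S1pr4 (5 of 7) and Satb1 and Lef1 (4 of 7), and in each of these pairs the means were closer than their SDs. S1pr4 was above Satb1, Lef1 above Igfbp4, and Igfbp4 above Bach2, in 7 of 7. With all exons of a gene counted as its length, Lef1 (74.6 per kilobase) came above Satb1 (68.4), and no other pair of neighbours swapped.

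**Figure D1:**
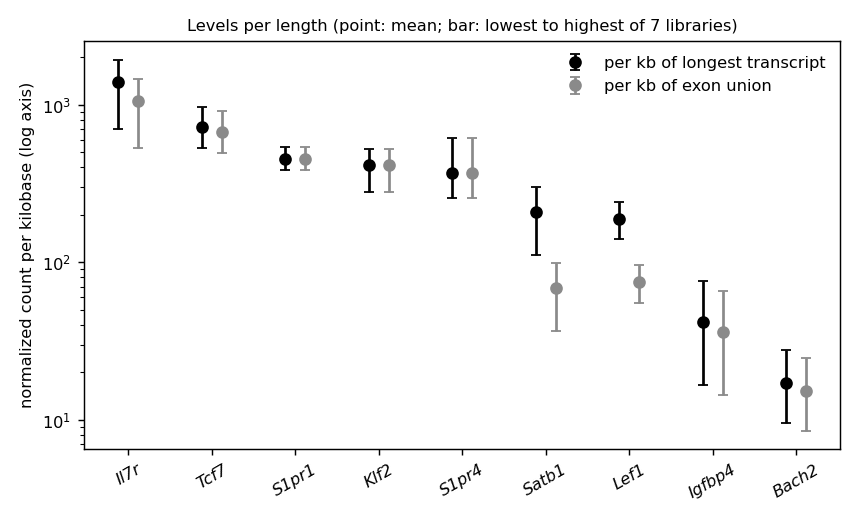
Normalized counts per kilobase of the longest GENCODE transcript (log axis) for the 9 genes in order of their mean, with the mean and the range of the 7 libraries. Il7r is highest at a mean of 1391 and Bach2 lowest at 17.1, and the ranges of S1pr1, Klf2 and S1pr4 overlap.

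For the egress genes, the comparison of KO with WT asks whether Treg cells that lack Hpgd differ in genes of lymph node exit. Klf2, the activator of the group, gave 623, 962, 787 and 690.2 normalized counts across WT libraries 1 to 4, and KO 1, KO 2 and KO 3 gave 799, 518 and 956. The lowest value was KO 2 and the highest WT 2, and 2 of 3 KO values lay inside the WT range. The means were 766 ± 148 (SD, n = 4) and 758 ± 222 (n = 3). The log2 difference, KO minus WT, was -0.04 (SE 0.24, 95% interval -0.57 to 0.49), and -0.12 without WT 2 and KO 3. S1pr1, the main exit receptor, read 1519, 1264, 1426 and 1236 in WT and 1632, 1179 and 1436 in KO, with KO 1 above and KO 2 below every WT library. Its means were 1361 ± 135 and 1416 ± 227, a log2 difference of 0.05 (SE 0.19, -0.36 to 0.46), so a change beyond 1.38-fold up or to below 0.778-fold lies outside the interval, and it was -0.00097 without WT 2 and KO 3. S1pr4, a relative of S1pr1 found mainly on leukocytes, read 794, 1460.3, 829.01 and 691 in WT and 965, 762 and 612 in KO. WT 2 stood above the other 6 libraries, and 2 of 3 KO values lay inside the WT range. Its means were 944 ± 349 and 779.8 ± 177, a log2 difference of -0.24 (SE 0.27, -0.81 to 0.34), which became 0.16 without WT 2 and KO 3. All 9 genes had a limma adjusted p of 0.9996, so none of these differences passed the threshold of 0.05.

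**Figure D2:**
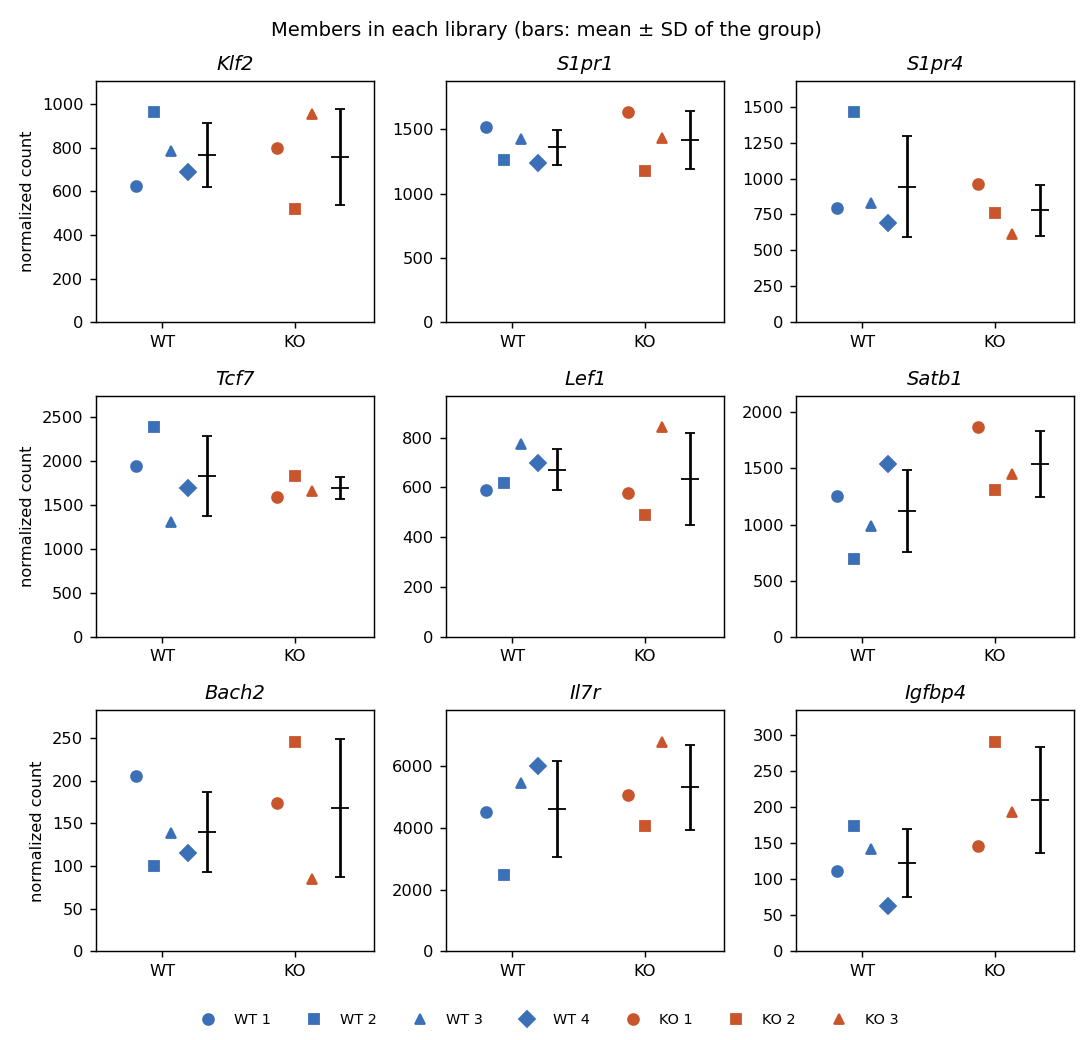
Normalized counts of the 9 genes in each library, 4 WT and 3 KO, with a panel and an axis of its own per gene and a line for each group's mean. In every panel the ranges of WT and KO points overlap, and WT 2 is the highest library for Klf2, S1pr4 and Tcf7 and the lowest for Satb1 and Il7r.

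Tcf7 and Lef1, the HMG-box factors, did not pass the test in either direction. Tcf7 read 1939, 2388, 1304 and 1692 in WT and 1596, 1831 and 1655 in KO. All 3 KO values lay between the lowest (WT 3) and highest (WT 2) WT libraries. The means were 1831 ± 454 (SD, n = 4) and 1694 ± 122 (n = 3), a log2 difference of -0.08 (SE 0.22, -0.55 to 0.39), which became 0.07 without WT 2 and KO 3. Lef1 read 591, 619, 775 and 699 in WT and 577, 487 and 842 in KO. Here the KO libraries lay outside the WT range on both sides, KO 1 and KO 2 below it and KO 3 above it. The means were 671 ± 83.0 and 635 ± 185, a log2 difference of -0.11 (SE 0.23, -0.60 to 0.38). This was -0.37 without WT 2 and KO 3, and 0.063 without KO 2 alone.

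Satb1, the chromatin organizer, read 1257, 697, 986 and 1542 in WT and 1869, 1306 and 1449 in KO. KO 1 was the highest library and WT 2 the lowest, while KO 2 and KO 3 lay inside the WT range. Its means were 1121 ± 362 (SD, n = 4) and 1542 ± 293 (n = 3), a log2 difference of 0.50 (SE 0.26, -0.06 to 1.07), or 1.42-fold (0.959 to 2.10). Its unadjusted limma p was 0.0757, and 3.49% of the 11787 tested genes had a smaller one. The log2 difference was 0.30 without WT 2 and 0.33 without WT 2 and KO 3. Bach2, the repressor, read 206, 99.6, 139 and 115 in WT and 174, 246 and 84.6 in KO. Both the highest (KO 2) and the lowest (KO 3) library were KO, and the KO 3 value rests on 46 reads. The means were 139.9 ± 46.8 and 168 ± 80.7, a log2 difference of 0.19 (SE 0.39, -0.65 to 1.03) that was -0.15 without KO 2, 0.61 without KO 3 and 0.47 without WT 2 and KO 3.

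Il7r read 4527, 2478, 5473 and 6015 in WT and 5089.9, 4072 and 6806 in KO. KO 3 was highest and WT 2 lowest, and 2 of 3 KO values lay inside the WT range. The means were 4623 ± 1557 (SD, n = 4) and 5322 ± 1382 (n = 3), a log2 difference of 0.25 (SE 0.30, -0.39 to 0.89), which was -0.22 without WT 2 and KO 3. Igfbp4 had the widest range of the 9, with 111, 174, 143 and 63.3 in WT and 146, 291 and 193 in KO. KO 2 and KO 3 lay above all 4 WT libraries and KO 1 lay between WT 3 and WT 2. Its means were 123 ± 47.2 and 209.9 ± 74.0, a log2 difference of 0.80 (SE 0.38, -0.01 to 1.62), or 1.75-fold (0.990 to 3.08). This was the largest difference among the members, with an unadjusted limma p of 0.0537 and 2.04% of tested genes below it. The log2 difference was 0.52 without WT 4 and 0.54 without KO 2, and 1.03 without WT 2 and KO 3. Summed stromal markers were 91.1 in KO 1, 58.2 in KO 2 and 49.6 in KO 3, against 41.8 to 52.0 in WT, and their part in the Igfbp4 values was not tested.

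**Figure D3:**
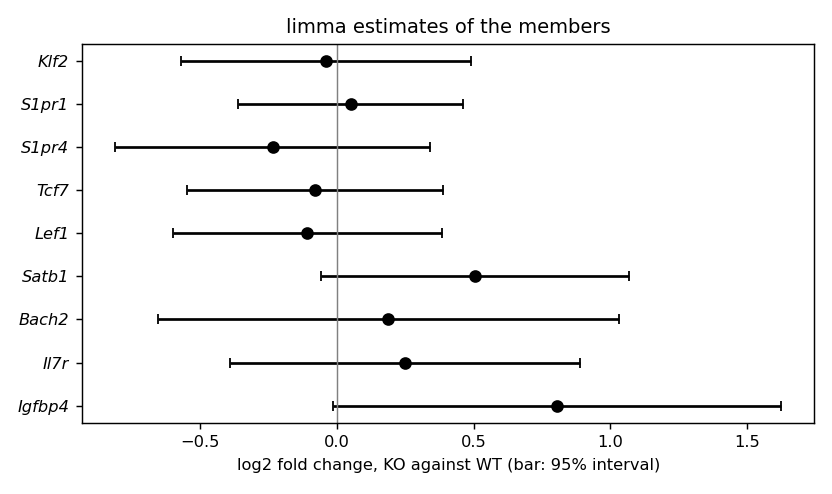
Log2 difference in normalized count, KO minus WT, with its 95% interval from limma for the 9 genes, beside the zero line. All 9 intervals include 0, and the estimates run from -0.24 (S1pr4) to 0.80 (Igfbp4).

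Among the 9 members, 0 passed the limma adjusted p threshold, against 0% of all tested genes, with 0.189 as the smallest adjusted p of any. At an unadjusted limma p under 0.05 the count was 0 of 9 members, against 1.79% of tested genes (211), and voom on recovered reads called 0 genes with 184 under that unadjusted threshold. That count depends on the setting: Igfbp4 was under 0.05 in 6 of 19 alternatives, Satb1 in 2 and the other 7 members in 0. Igfbp4 had an unadjusted limma p of 0.0015 with array weights, 0.0151 without WT 2 and 0.0214 without WT 2 and KO 3. Satb1 had an unadjusted limma p of 0.0232 without WT 4 and 0.0097 with the replicate block. Those 2 settings gave the same Satb1 estimate, 0.68, since WT 4 has no KO library of its number. Groups did not overlap in 0 of 9, against 3.65% of tested genes. The estimate was higher in KO for 5 of 9 and lower for 4, against 51.8% higher over all tested genes. The median log2 difference of the 9 was 0.05, against 0.01 over all. Half-widths of the intervals ran from 0.41 (S1pr1) to 0.84 (Bach2) on the log2 scale, so smaller differences than these were not resolved with 4 and 3 libraries.

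For all 9 genes the spread between libraries was above counting error. Over the 7 libraries the coefficient of variation was 11.9% for S1pr1 and 44.7% for Igfbp4, where reads alone would give 2.75% and 8.13%. Il7r, counted most deeply, varied by 28.6% against 1.48% from reads. SmartSeq2 reads carry no molecular identifier, so read counts overstate the number of molecules and these limits cover counting error only. Compared with genes within 1.5-fold of the same mean, S1pr1 varied little: its log2 SD was 0.17 and 14.7% of those genes had a lower one. Satb1 (0.47), Il7r (0.48), S1pr4 (0.41) and Igfbp4 (0.68) varied more than most, with 88.6%, 89.1%, 83.2% and 88.9% of like genes below them. Tcf7 (0.27) and Lef1 (0.27) were near the middle, with 50% and 42.0% of like genes below them, with Klf2 (0.33) at 64.9% and Bach2 (0.56) at 76.9%.

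Across the libraries the 9 genes had pairs of both signs. Of their 36 pairs, 15 had a positive and 21 a negative Pearson r of log2 normalized counts over the 7 libraries, with a median of -0.05. This split depends on the setting, with 19 positive after scaling to the same total, 19 without WT 2 and KO 3, and 18 centred within genotype. By exact two-sided permutation over all 5040 orders, 4 pairs had p under 0.05 and 0 had a Benjamini-Hochberg adjusted p under 0.05 over the 36 pairs. Klf2 and Bach2 had r of -0.86 (exact permutation p = 0.0121, adjusted 0.332) and rho of -0.82 (p = 0.0341, adjusted 0.614). Without KO 2 and WT 1, the libraries farthest from the Klf2 median, r was -0.57, and centred within genotype it was -0.87 (exact permutation p = 0.0556). S1pr4 and Il7r had r of -0.88 (exact permutation p = 0.0185, adjusted 0.332) and rho of -0.68 (p = 0.110, adjusted 0.789). That relation rests on KO 3 and WT 2, without which r was -0.13. Lef1 and Bach2 had r of -0.80 (exact permutation p = 0.0333, adjusted 0.400) and rho of -0.82 (p = 0.0341, adjusted 0.614), and r was -0.42 without KO 2 and KO 3. Tcf7 and Il7r had r of -0.78 (exact permutation p = 0.0496, adjusted 0.446) and rho of -0.68 (p = 0.110, adjusted 0.789), and r was -0.65 without WT 2 and WT 3. Of the 11786 other tested genes, 99.7% had a higher r with Klf2 than Bach2 had, and 98.5% a higher r with Lef1 than Bach2 had. For Il7r the share was 95.6% with S1pr4 and 92.7% with Tcf7. In the other direction it was 99.4% (Klf2 with Bach2), 98.5% (Lef1 with Bach2), 98.1% (S1pr4 with Il7r) and 92.5% (Tcf7 with Il7r). Centred within genotype, r was -0.87 for S1pr4 and Il7r (exact permutation p = 0.0556), -0.79 for Lef1 and Bach2 (p = 0.125) and -0.78 for Tcf7 and Il7r (p = 0.104), so none of the 4 pairs stayed under 0.05. The only pair under 0.05 when centred was Satb1 and Igfbp4, named after its value was seen, with r of -0.92 (exact permutation p = 0.0208, adjusted 0.594) against -0.22 uncentred.

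**Figure D4:**
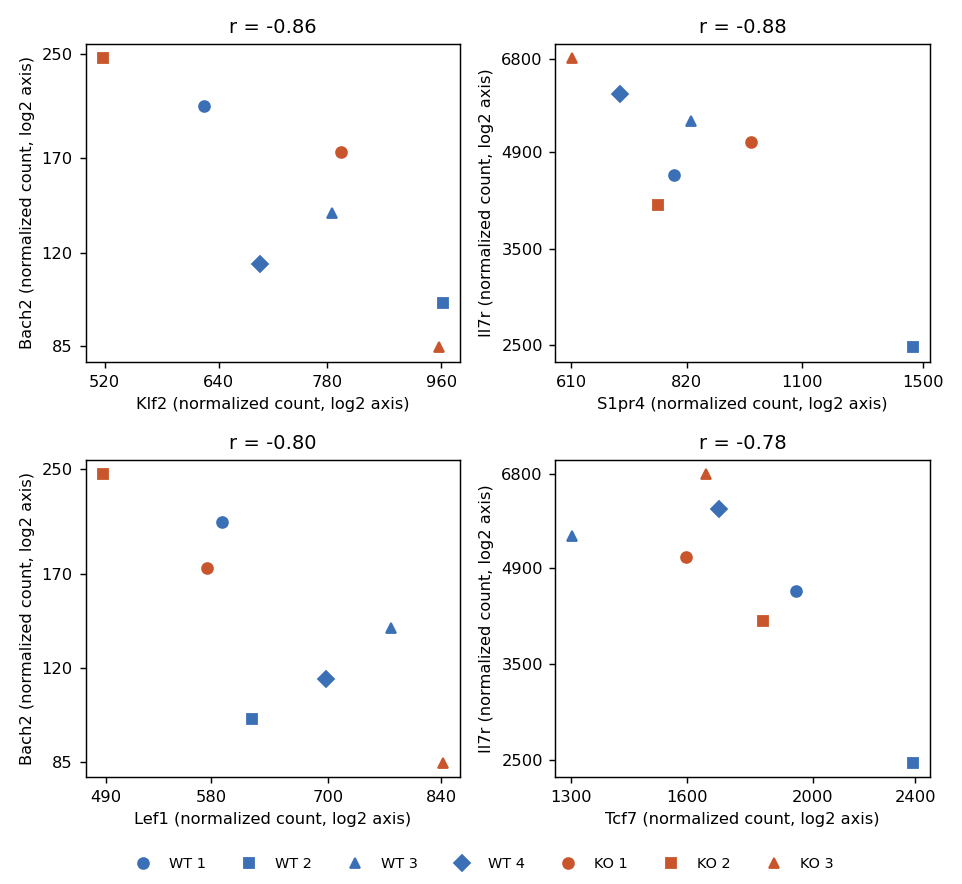
Normalized counts (log axes) of the 4 pairs with the lowest permutation p, with 1 labelled point per library coloured by genotype. Points fall from upper left to lower right in all 4, and WT 2 and KO 3 are at opposite ends for S1pr4 and Il7r, where r was -0.88 with them and -0.13 without.

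Pairs with a known functional link had r between -0.45 and 0.31, none past the threshold. Klf2 and its target S1pr1 had r of 0.31 (exact permutation p = 0.494, adjusted 0.928) and rho of 0.32 (p = 0.498, adjusted 0.989), and r was 0.08 without KO 2 and WT 1. S1pr1 and S1pr4 had r of -0.03 (exact permutation p = 0.948, adjusted 0.948) and rho of 0.25 (p = 0.595, adjusted 0.989), and r was -0.49 without KO 2 and WT 4 but 0.83 without WT 2 and KO 3. Tcf7 and Lef1 had r of -0.45 (exact permutation p = 0.301, adjusted 0.928) and rho of -0.36 (p = 0.444, adjusted 0.989), and -0.45 without WT 2 and WT 3. The highest positive r was that of Satb1 and Il7r, 0.73 (exact permutation p = 0.0716, adjusted 0.516), with rho of 0.54 (p = 0.236, adjusted 0.989) and r of 0.31 without KO 1 and WT 2. Among all 11786 other tested genes, 4.28% had a higher r with Satb1 than Il7r had, and 14.5% had a higher r with Il7r than Satb1 had. Klf2 and Lef1 followed at r of 0.67 (exact permutation p = 0.0968, adjusted 0.581), with rho of 0.50 (p = 0.267, adjusted 0.989) and r of 0.12 without KO 2 and WT 1. The median r of a member with the other 8 ran from -0.21 (Tcf7) to 0.14 (S1pr1), and its median with all tested genes from -0.04 (Il7r) to 0.04 (S1pr4).

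**Figure D5:**
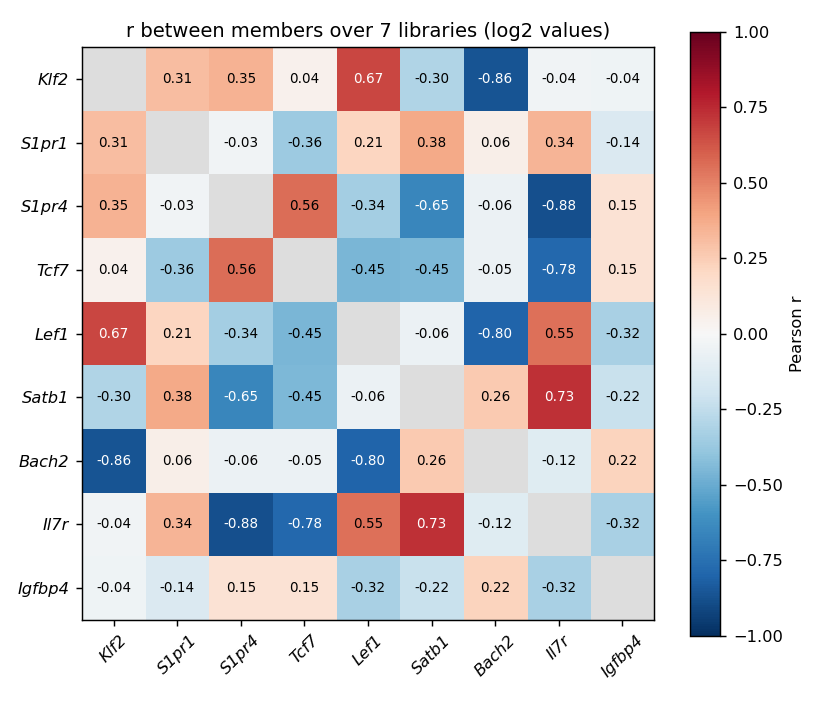
Pearson r of log2 normalized counts over the 7 libraries for the 36 pairs of the 9 genes, as a colour grid from -1 to 1. The lowest r is -0.88 (S1pr4 and Il7r) and the highest 0.73 (Satb1 and Il7r), and 21 of 36 are negative.

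For 8 of the members the gene with the most similar pattern is given. Over 7806 genes with a mean of at least 100 normalized counts, the most like S1pr1 was Tecpr1 (r 0.96, rho 0.96 over 7 libraries), and like S1pr4 Ap1m1 (0.98, 0.93). For Tcf7 it was Atp5o (0.99, 1.00), for Lef1 Clint1 (0.99, 0.96), for Satb1 Pik3r1 (0.96, 1.00), for Bach2 Afap1 (0.93, 0.96), for Il7r Dcun1d3 (0.99, 1.00) and for Igfbp4 Peak1 (0.94, 0.96). These are the best of 7806 genes over 7 points and are a description, with library and depth shared by all. The number of genes with r over 0.95 was 57 for Il7r, 33 for S1pr4, 25 for Tcf7, 6 for Lef1, 4 for Satb1, 1 for S1pr1, and 0 for Bach2 and Igfbp4.

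Genes around the members were followed as lists, and 0 genes of any list passed the adjusted threshold. Of 25 other naive and quiescence genes tested, 17 were higher and 8 lower in KO by estimate, with a median log2 difference of 0.07. Ly6c1, a surface marker of some resting T cells, read 29.9 ± 9.18 (SD, n = 4) in WT and 49.95 ± 9.59 (n = 3) in KO, and was the only gene of the 25 without overlap between the groups, where 3.65% of all tested genes had none. In the sphingosine-1-phosphate pathway, 6 of 11 tested genes were higher and 5 lower (median 0.01), including Sphk2, a sphingosine kinase (149 ± 48.3 and 105 ± 43.0), and Grk2, a receptor kinase (1741 ± 254 and 1449 ± 270). Of 12 tested homing and adhesion genes 7 were higher (median 0.02), with the beta-1 integrin gene Itgb1 at 1921 ± 627 and 2407 ± 1198.

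Of 18 tested TCF and LEF partners, 13 were lower and 5 higher in KO by estimate, with a median of -0.27 against 0.01 over all tested genes. Groups did not overlap for Tle3, a co-repressor (648 ± 57.3 in WT and 519.6 ± 56.6 in KO), and for Tcf7l2, a relative of Tcf7 (35.4 ± 16.3 and 14.0 ± 4.29), 2 of 18 genes against 3.65% of all tested genes. For Tcf7l2 that rests on a small gap at a low level, 18.1 in WT 2 against 17.5 in KO 1. In the interleukin-7 receptor pathway 6 of 12 were higher (median -0.04), with Crlf2, the other receptor partnered by Il7r, at 211 ± 83.8 and 134 ± 3.53 and Stat5a at 599 ± 51.9 and 493 ± 147. Crlf2 reached 326 in WT 2, and its log2 difference was -0.57 with that library and -0.34 without it. Of 7 tested SATB and BACH relatives and partners 4 were higher (median 0.05), with Nfe2l2, a factor that binds related DNA sites, at 384 ± 63.3 and 462 ± 132 and Nfe2 at 30.05 ± 20.2 and 32.1 ± 4.43. Mafk was the only gene of these 7 without overlap, against 3.65% of all tested genes.

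Of 11 tested members of the KLF family other than Klf2, 9 were higher in KO by estimate (median 0.13). Klf4, a zinc finger factor linked to quiescence, read 6.602 ± 2.48 (SD, n = 4) in WT and 26.4 ± 11.9 (n = 3) in KO, a log2 difference of 1.796 (SE 0.77, unadjusted limma p 0.0375). Klf12 read 198 ± 32.6 and 127 ± 17.6, a log2 difference of -0.63 (SE 0.27, unadjusted limma p 0.0384). Groups did not overlap for these 2 of 11 genes, against 3.65% of all tested genes, and 1.79% of all had an unadjusted p under 0.05. Neither gene passed after adjustment (limma adjusted p 0.9996). The filter required a mean of at least 10 normalized counts over the 7 libraries. Klf4 passed it at 15.1 because of its KO values, since its WT mean of 6.602 lay below 10. The unadjusted p and the lack of overlap of Klf4 come with that selection, and rest on low WT values, 4.40 to 9.05. Of 5 tested genes of the insulin-like growth factor pathway 4 were higher (median 0.48), with Irs2 at 29.2 ± 23.0 and 60.3 ± 43.1 and Insr at 145 ± 79.3 and 189 ± 84.0. Of 24 effector Treg genes, which mark activated rather than resting cells, 15 were higher (median 0.07), with Cxcr6 at 582 ± 254 and 793 ± 193 and Icos at 5480 ± 1070 and 6717 ± 622. Without WT 2 and KO 3 the log2 difference of Irs2 went from 0.98 to 0.35, and those of Sphk2 (-0.54 to 0.045), Itgb1 (0.26 to -0.19), Nfe2l2 (0.25 to -0.014), Nfe2 (1.02 to -0.22) and Insr (0.48 to -0.27) changed sign.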

How the data were processed

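YFP+ Treg cells from mLN were profiled by RNA-seq in 4 WT and 3 KO libraries, grouped by the titles of the labels. Libraries were made from 10 ng of total RNA with SmartSeq2, per the labels' protocols, then run on a NextSeq 500, with bcl2fastq2 2.20 for demultiplexing. Build mm10, kallisto 0.44, CASAVA 1.8, DESeq2 (version not given), Partek 6.6 and R 3.3.1 are listed, in no order and with no role, in the submitters' processing notes. What the authors deposited is a normalized signal for each gene in each library, with an offset of 1. In each library 100% of values minus 1 were whole multiples of a step, within 0.01 of a read, and 1 read is worth 0.703 to 1.84 normalized counts. KO 3 had the fewest recovered reads, so low genes are least precise there.

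Log2(normalized count + 1) was fitted with limma 3.58.1 (R 4.3.3; trended prior; KO minus WT; Benjamini-Hochberg adjustment at 0.05) over genes with a mean of at least 10. The main fit used no count model, since the deposited numbers are normalized, and recovered reads served in an alternative only. Pairs were tested in Python 3.11.15 with scipy 1.17.1. Alternatives were other pseudocounts, filters, scalings and priors, array weights, voom on recovered reads, a replicate block, and libraries left out. Scripts were tested on simulated data. Gene models are GENCODE M21 (GRCm38, the assembly of mm10) and promoters RefSeq on GRCm38.p6. Named were the 9 members, per pathway list the 2 genes with the smallest unadjusted p, per marker list the 2 highest, and per member the gene most like it, and some of these are not reported here. Other genes are named where a count of 5 or fewer rests on them. The members and lists were chosen with earlier results of these data known.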

Additional observations from a re-analysis of the deposited data

Results flagged for a closer look

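Nfe2, a factor that shares DNA sites with BACH proteins, was listed at 0 normalized counts in WT 2 against 36.5 to 41.8 in the other 3 WT libraries, a gap of 0.873 of the group's range. This was the only one of 27 groups of 4 libraries in which a single library lay so far from the rest, and chance alone puts about 1 group in 20 there.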

How the results depend on the processing

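No member passed the adjusted threshold under any of 19 alternatives to the fit (smallest limma adjusted p of a member 0.920). The number of genes called over the whole table, 0, became 4 with array weights, 3 with the replicate block and 4 without WT 2 and KO 3. Same-numbered WT and KO libraries had correlations of -0.04 to 0.09 in their deviations, and differently numbered ones -0.20 to 0.20. With only 3 same-numbered pairs, these values cannot tell whether the numbers pair the samples. Under the block 0 members passed and the median log2 difference was 0.0047, with Satb1 at an unadjusted limma p of 0.0097. WT 4 has no KO library of its number, so the block gave the same member estimates as leaving out WT 4. Satb1 (0.23 to 0.68) and Igfbp4 (0.52 to 1.24) kept their sign in every fit, and 15 of 171 member estimates reversed. With array weights S1pr1 became -0.030, S1pr4 0.033, Tcf7 0.0021, Il7r -0.14 and Nfe2l2 -0.018. Without WT 2 and KO 3, S1pr1 became -0.00097, S1pr4 0.16, Tcf7 0.074, Il7r -0.22, Sphk2 0.045, Itgb1 -0.19, Nfe2l2 -0.014, Nfe2 -0.22 and Insr -0.27. Leaving out each library in turn gave -0.23 to 0.21 for Klf2, -0.059 to 0.17 for S1pr1, -0.23 to 0.059 for Tcf7, -0.33 to 0.063 for Lef1, -0.15 to 0.61 for Bach2, -0.026 to 0.42 for Il7r, -0.11 to 0.53 for Itgb1, -0.32 to 1.49 for Nfe2, and -0.039 to 0.17 for the median of the members. The r of S1pr1 and S1pr4 was 0.0052 with upper quartile scaling, 0.015 centred within genotype, 0.83 without WT 2 and KO 3, and -0.22 to 0.50 without each library. The r of Klf2 and S1pr1 ran from -0.18 to 0.56, and that of Bach2 and Il7r from -0.99 to 0.23, with 0.034 after scaling to the same total. The cause of these shifts was not tested.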

Other observations

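Bach2 and Il7r, chosen here after the values were seen, had r of -0.12 over the 7 libraries (exact permutation p = 0.814, adjusted 0.948; rho -0.46, p = 0.302). Without WT 2 the other 6 libraries gave r of -0.99 (exact permutation p = 0.0014, Benjamini-Hochberg adjusted over 36 pairs 0.05, the smallest of any alternative). WT 2 was the lowest library for Il7r (2478 normalized counts), and only KO 3 was lower for Bach2 (84.6 against 99.6). With 6 libraries that p is the smallest the permutations can give, so a single pair cannot fall under an adjusted 0.05 there.

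Tcf7 and Satb1, likewise chosen after the values were seen, had r of -0.45 over 7 libraries (exact permutation p = 0.303, adjusted 0.928). Without WT 3 r was -0.98 (exact permutation p = 0.0028, adjusted 0.1).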
